A study of Mus musculus with 74 samples.

Results

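Mouse fibroblasts on their way to another cell fate were moved at day 8 from a medium without growth factors into neural stem cell (NSC) medium, and the expression profiles of the days that followed are described here. The comparison uses 6 of the 74 samples of the series: 4 libraries from NSC medium with doxycycline (Dox), 2 each from days 12 and 16, against 2 libraries from N2B27 medium with Dox at day 8. These 6 were taken by their labels from 26 labelled libraries. These hold the experiment in which neural and pluripotent reprogramming were run in parallel, and reference cells. The reference cells are fibroblasts at passage 1, and primary neural stem cells and an induced neural stem cell line, both at passage 15. They enter the shared estimate of the spread and no comparison. All 6 libraries compared came from embryonic fibroblasts (MEFs) of Nanog-CreER/Rosa26-tdTomato/Sox2-GFP genotype, which carried M2rtTA and Dox-inducible lentiviruses for Klf4, c-Myc and eSox17FNV, an engineered form of the transcription factor Sox17. Dox, which switches the introduced genes on, was present at 1 µg/mL in all 6 libraries and was withdrawn only after day 16. NSC medium is N2B27 (DMEM/F-12 with N2, B27 and Glutamax) with 10 ng/mL bFGF and 10 ng/mL EGF added. Libraries of further groups are used beside them. Cells of the same split after day 8 went to LIF/2i medium with Dox, collected at days 12 and 16 (4 libraries). It holds 10 ng/mL LIF, 3 µM CHIR99021 and 1 µM PD0325901 in N2B27-based medium. The others are N2B27 with Dox at day 4, and NSC medium and LIF/2i medium after Dox withdrawal, each at days 20 and 24. Beyond the shared estimate of the spread, the LIF/2i libraries after Dox are used only for levels by day and the likeness to Spry2.

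EGF and FGF bind receptor tyrosine kinases at the cell surface and act through Ras, Raf and MEK on the kinase ERK. Active ERK switches on transcription factors of the AP-1, Egr and Etv families, and with them genes whose products dampen the same pathway: the Sprouty and Spred proteins, which act on Ras and Raf, and the dual-specificity phosphatases, several of which dephosphorylate ERK. Transcripts of these feedback genes are widely read as a sign of pathway activity, and PD0325901, a part of LIF/2i medium, inhibits MEK.

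The deposited values are the authors' normalized tag counts, which are whole numbers with the same highest value, 87546, and nearly the same sum in every library, so that the depth of a library is unknown and precision rests on the spread between libraries. Replicate pairs had Pearson r between 0.942 and 0.950 over all genes on the log2 scale, days 12 and 16 in NSC medium between 0.915 and 0.918, and NSC medium and day 8 between 0.879 and 0.899. Each of the 6 libraries was closest to its own replicate. Fold changes are given as log2 of value + 2, ± SE, with p-values from limma adjusted over 20468 genes, and a gene is called where the adjusted p is below 0.05 and the log2 change is at least 1 in size. Against day 8, 3117 genes (15.2% of those tested) were called in NSC medium, 1415 (6.91%) higher and 1702 (8.32%) lower, and the median of all genes was 0.10. Day and medium changed together in this comparison and cannot be told apart within it; the LIF/2i libraries have the same days. Nothing says that the replicates were separate cultures, so the p-values measure the spread between libraries, which may be technical.

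Spry2, Otx2 and Krt5 were the marker genes of this comparison, and each went its own way. Spry2, a Sprouty inhibitor of receptor tyrosine kinase signalling, was at 1460 and 1471 at day 12 and 2367 and 2628 at day 16 in NSC medium, against 659 and 716 at day 8 in N2B27. All 4 NSC medium libraries lay above both day 8 libraries, and the log2 fold change was 1.47 ± 0.07 (adjusted p = 1.11e-09). Krt5, the keratin of basal epidermal cells, was at 122 and 139 at day 12 and 25 and 26 at day 16 in NSC medium, against 827 and 800 at day 8, a log2 fold change of -3.76 ± 0.52 (adjusted p = 5.27e-05). The day 8 level of Krt5 was itself recent, since the 2 libraries of day 4 held 38 and 32. Otx2, a homeobox factor of anterior neural and primed pluripotent cells, was at 75 and 40 at day 12 and 21 in both libraries of day 16 in NSC medium, against 21 and 15 at day 8; these groups overlapped, and the difference of 0.87 ± 0.65 was not called (adjusted p = 0.306).

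**Figure D1:**
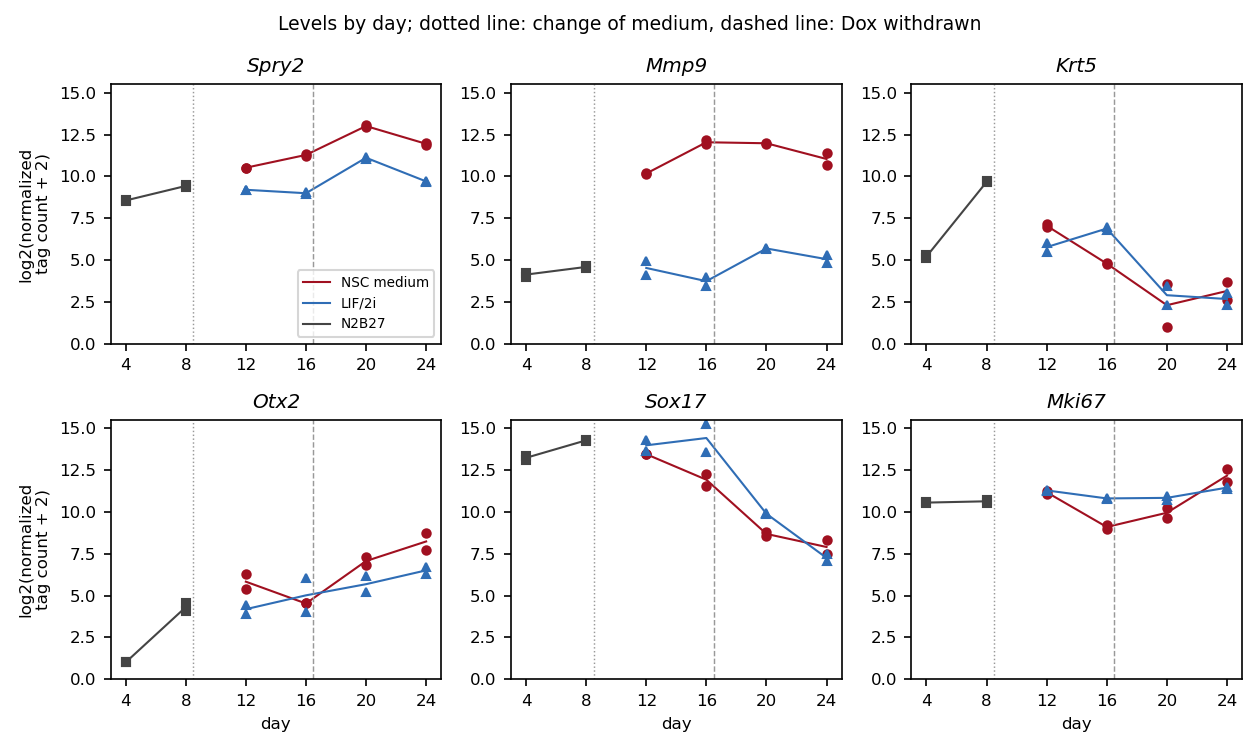
Levels of 6 genes by day of reprogramming, as log2 of the normalized tag count + 2 (vertical) against day (horizontal), with 1 point per library and lines through the group means, in NSC medium, LIF/2i and N2B27. Spry2 and Mmp9 lie above their day 8 levels at days 12 and 16 in NSC medium and near or below them in LIF/2i, Krt5 lies below its day 8 level in both media, and Mki67 drops between days 12 and 16 in NSC medium.

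Most of the ERK feedback genes rose over the average of both days. Of the 18 listed, 11 were higher in NSC medium than at day 8, 1 was lower and 6 were not called, against 6.91% and 8.32% of all genes, and the list's median log2 fold change was 1.22 against 0.10 for all genes. By day, 6 were higher and 1 lower at day 12, with a median of 0.72 (7.43% and 8.72% of all genes), and 12 were higher and 0 lower at day 16, with a median of 1.61 (8.4% and 8.87%). Set directly against day 12, 4 were higher and 0 lower at day 16 (10.3% of all genes called, 5.27% higher and 5.02% lower). Against LIF/2i at the same days, 14 of the 18 were higher and 0 lower (7.45% and 8.07% of all genes), with a median of 1.92. The summed level of the 18 genes was 18155 to 28513 in NSC medium, 6919 to 9777 in LIF/2i and 10976 to 11926 at day 8, 3 ranges that do not overlap. In N2B27, before the change of medium, 6 of the 18 were higher at day 8 than at day 4 and 0 lower, where 4.7% of all genes were called, 3% higher and 1.71% lower. The shares of all genes given in this paragraph hold for the same comparisons of every list below. Counts of 0 here and below are of limma calls. At an unadjusted p under 0.05, 1 of the 18 was lower than in LIF/2i and 0 were lower at day 8 than at day 4.

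Dusp5, a nuclear phosphatase of ERK, was at 396, 317, 743 and 657 in NSC medium at days 12, 12, 16 and 16, against 45 and 96 at day 8, a log2 fold change of 2.88 ± 0.32 (adjusted p = 6.48e-06). Etv4, an ETS factor induced by FGF signalling, was at 1709, 1631, 1720 and 1502, against 335 and 172 at day 8 (2.76 ± 0.26, adjusted p = 1.68e-06). Dusp5 was higher in both day 16 libraries than in both day 12 libraries, a difference of 0.98 ± 0.37 that was not called (adjusted p = 0.0641), and Etv4 differed by -0.05 ± 0.30 between the days. The early response gene Ier3 was called higher at day 16 than at day 12, with 1168 in both libraries of day 12 and 3834 and 3616 at day 16 in NSC medium, against 423 and 431 at day 8 (2.28 ± 0.31, adjusted p = 4.72e-05). Spry4, another Sprouty, was at 1695, 1543, 1806 and 1679 in NSC medium, against 479 and 355 at day 8 (2.02 ± 0.17, adjusted p = 4.08e-07). Dusp6, the cytoplasmic phosphatase of ERK, was at 1586, 1543, 1908 and 2367, against 645 and 672 at day 8 (1.47 ± 0.17, adjusted p = 1.24e-05). For these 5 genes all 4 NSC medium libraries lay above both day 8 libraries. In LIF/2i, Dusp6 stood at 115 to 283, below both day 8 libraries.

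Called with smaller changes were Phlda1 (1.32), Spred3 (1.29), the ETS factor Etv1 (1.27), the phosphatase Dusp4 (1.17) and Spred1 (1.02). Dusp4 was at 161 and 195 at day 12 and 572 and 689 at day 16 in NSC medium, against 166 and 131 at day 8, so its rise belongs to day 16 and its groups overlapped. Its change came to 1.00 and missed the threshold without the second day 8 library, and that of Spred1 to 0.96 without the first and 0.91 after the libraries were rescaled by median ratios. In LIF/2i, Dusp4 stood at 7 to 21, and its difference between NSC medium and LIF/2i, 4.65 ± 0.22, was the largest of the list (adjusted p = 6.62e-10).

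Spry1 was the called member that ran the other way. It was at 205 and 156 at day 12 and 661 and 792 at day 16 in NSC medium, against 804 and 932 at day 8, a log2 fold change of -1.26 ± 0.33 (adjusted p = 0.00659, or 0.0657 without the second day 8 library). It was lower at day 12 (-2.26) and then higher at day 16 than at day 12 (2.00 ± 0.38 on the log2 scale). The 6 members not called were Errfi1, an inhibitor of the EGF receptor, with 0.92 (1.42 and called without the second day 8 library), the adaptor Sh2b3 with 0.56, Etv5 with 0.52, Spred2 with -0.31, the ubiquitin ligase Cbl with -0.48 and Lrig1 with -0.54. Of the 18, 13 had all 4 NSC medium libraries above both day 8 libraries and 2 had all 4 below, against 46.8% of all genes whose libraries did not overlap in either direction.

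**Figure D2:**
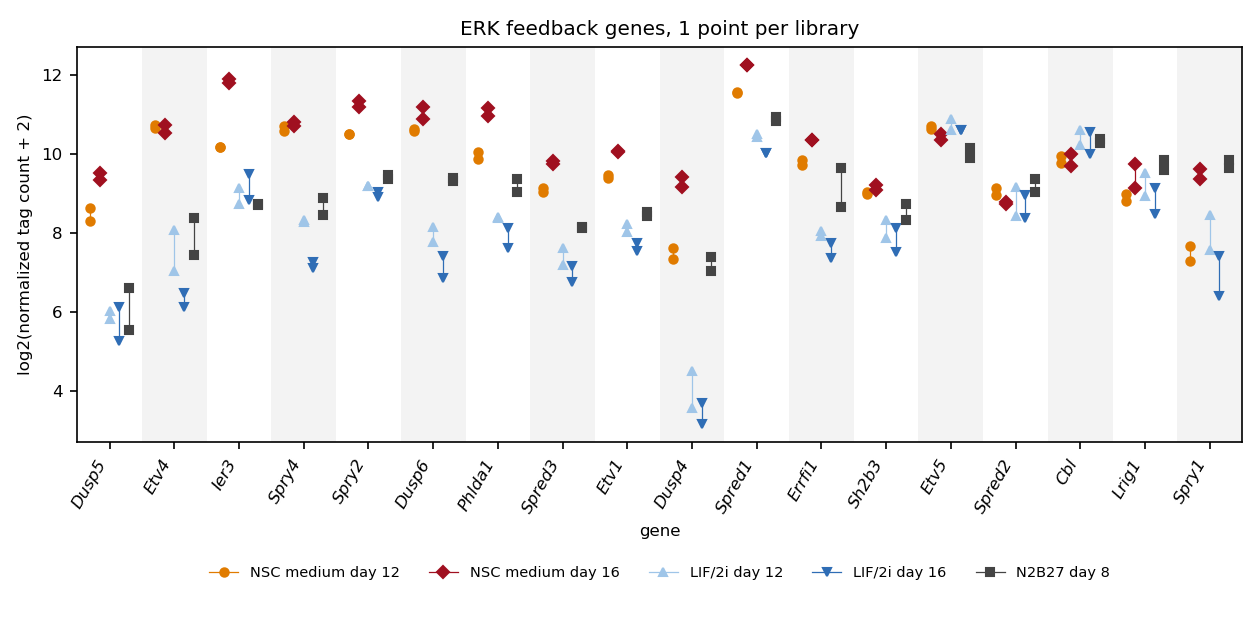
Levels of the 18 ERK feedback genes as log2 of the normalized tag count + 2 (vertical), with 1 point per library, ordered from left to right by their change from day 8. In 10 of the 11 genes called higher the NSC medium points lie above the N2B27 day 8 points, with Dusp4 as the gene that overlaps, and the LIF/2i points of Dusp4, Dusp6 and Phlda1 lie below them.

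The promoter stretch of Spry2, 250 bases before the start of the gene in RefSeq on GRCm38.p6, is shown because it is the marker of the group. It lies at chr14:105896820-105897069 on the minus strand.
Spry2: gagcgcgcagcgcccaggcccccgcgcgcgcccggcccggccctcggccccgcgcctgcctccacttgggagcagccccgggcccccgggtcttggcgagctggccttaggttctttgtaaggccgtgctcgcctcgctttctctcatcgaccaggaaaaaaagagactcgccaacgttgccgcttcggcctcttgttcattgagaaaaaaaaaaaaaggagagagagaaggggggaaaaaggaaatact
Of the 12 called feedback genes, 8 had a promoter entry, and 0 of these 8 held the ETS letters CCGGAAGT, the AP-1 letters TGANTCA or the CRE letters TGACGTCA on either strand within 250 bases. The same letters occur in 2.88%, 6.75% and 1.55% of 32851 promoter entries, in that order. That says only that these letters are not in this window.

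Among the genes that encode the pathway's ligands, 2 of 9 of the EGF family rose and 0 fell over both days (3 higher and 3 lower at an unadjusted p under 0.05). At day 12, 2 were higher and 1 lower, and at day 16, 1 was higher and 1 lower. Areg (amphiregulin) was at 354 and 332 at day 12 and 496 and 498 at day 16 in NSC medium, against 52 and 38 at day 8, a log2 fold change of 3.16 ± 0.27 (adjusted p = 6.27e-07). Hbegf, the heparin-binding EGF-like factor, was at 920, 982, 612 and 612 in NSC medium, against 262 and 372 at day 8 (1.28 ± 0.31, adjusted p = 0.00351, or 0.0579 without the first day 8 library). Both were also higher than in LIF/2i, by 3.00 and 1.72. Epiregulin (Ereg), at 1352 to 1913 in NSC medium and 1285 and 1318 at day 8, was not called (0.31). Of 12 genes for FGF family ligands and FGF-binding proteins 2 were higher over both days (Fgf1 and Fgfbp1) and 3 lower (Fgf5, Fgf13 and Fgf18).

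None of the receptor genes rose. Of 12 genes for EGF and FGF receptors and their adaptors, limma called 0 higher and 3 lower, with a median of -0.67, and at an unadjusted p under 0.05 it was 0 higher and 8 lower. Fgfr2 was at 81, 82, 58 and 69 in NSC medium, against 370 and 612 at day 8 (-2.69 ± 0.28), and Fgfrl1, a receptor without a kinase domain, fell by 2.09 on the log2 scale. Erbb4 was listed at 0 in all 4 NSC medium libraries, against 81 and 122 at day 8. Fgfr1 had 1996 to 2957 in NSC medium and 3746 and 4399 at day 8, a difference of -0.78 that was not called. The EGF receptor gene Egfr was at 412 and 426 at day 12 and 1913 and 1452 at day 16 in NSC medium, against 1333 and 1845 at day 8. It was called lower at day 12 (-1.90) and was higher at day 16 than at day 12 (1.99), so that the average over both days, -0.91, was not called (-1.14 without the first day 8 library, -1.01 without the first day 16 library and -1.02 after rescaling, all called lower).

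Among genes for secreted proteases, their receptors and other products linked to ERK signalling, 6 of 17 were higher and 1 lower, with a median of 1.16. Mmp9, which encodes the gelatinase that degrades basement membrane collagen, showed the largest change of any gene that had at least 10 in each of the 6 libraries, a ranking chosen after the values were seen. It was at 1147 and 1158 at day 12 and 4548 and 3914 at day 16 in NSC medium, against 21 and 23 at day 8, a log2 fold change of 6.52 ± 0.28 (adjusted p = 4.22e-10). In LIF/2i it stayed at 9 to 29. The chromatin proteins Hmga1 and Hmga2 rose by 2.39 and 1.85: Hmga2 was at 10024, 9340, 13758 and 13758 in NSC medium, against 3389 and 3021 at day 8. Also called were Plau, the urokinase protease (2.18 ± 0.75, adjusted p = 0.0302), Timp1, an inhibitor of metalloproteases (1.82 ± 0.63, adjusted p = 0.0311), and Vgf, for a neuropeptide precursor (1.44). Plau lost the call with any of the 6 libraries left out (adjusted p from 0.0514 to 0.135), Timp1 with any but the second day 16 library (0.0542 to 0.183), Vgf with either day 8 library or the first library of day 12 or day 16 (0.0715 to 0.197), and all 3 lost it with a pseudocount of 1 (0.0828, 0.074 and 0.0734). Mmp14, a metalloprotease bound to the membrane, fell by 1.31 on the log2 scale.

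The AP-1 and immediate early genes rose mainly at day 16. Over both days 5 of 21 were higher than at day 8 and 2 lower (3 higher without the first day 8 library), against 6.91% and 8.32% of all genes. At day 12 the counts were 2 higher and 2 lower (7.43% and 8.72% of all genes), and at day 16 they were 9 and 2 (8.4% and 8.87%). Compared directly, 11 of the 21 were higher at day 16 than at day 12 and 0 lower (5.27% and 5.02% of all genes), with a median of 1.20 against 0 for all genes. Fosb was at 148 and 124 at day 12 and 2159 and 1908 at day 16 in NSC medium, against 32 and 36 at day 8 (3.88 ± 0.43, adjusted p = 6.29e-06). Fos itself was at 486 and 516 at day 12 and 3648 and 3713 at day 16 in NSC medium, against 946 and 986 at day 8. Egr1 was at 1684 and 1622 and then 6531 and 6971, against 2701 and 3177 at day 8. Both thus lay below day 8 at day 12 and above it at day 16. Maff rose by 1.50, the orphan receptor gene Nr4a1 by 1.16 and Ier5 by 1.15 over both days (Ier5 by 0.94 without the first day 8 library). Fosl1 rose by 1.98 (adjusted p = 0.0299, up to 0.136 with a library left out and 0.0538 with a pseudocount of 1). Srf, the factor that acts on many of these genes, fell by 1.10 and Ctgf by 1.95 (Srf by 0.75 without the second day 8 library).

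Days 12 and 16 differed in other groups too, and the average over both hides it. Of the cell cycle genes, 0 of 32 were called over both days (10 higher and 5 lower at an unadjusted p under 0.05), whereas 17 were higher and 0 lower at day 12, and 0 were higher and 12 lower at day 16. Set against each other, 30 of the 32 were lower at day 16 than at day 12 and 0 higher (5.02% and 5.27% of all genes), with a median of -1.85. Plk1, the mitotic kinase, was at 1188 and 1141 at day 12 and 94 and 106 at day 16 in NSC medium, against 486 and 499 at day 8. Mki67, the gene for the proliferation antigen, was at 2439 and 2201 and then 514 and 583, against 1713 and 1483 at day 8, and Tyms, for thymidylate synthase, at 1820 and 1695 and then 338 and 289, against 484 and 383 at day 8. All 3 genes were above day 8 at day 12 and below it at day 16. The summed level of the list ran from 18985 to 68869 in NSC medium, 73481 to 77246 in LIF/2i and 30020 to 34611 at day 8. In bulk libraries such as these, fewer cells of a kind and less RNA per cell cannot be told apart.

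Cholesterol synthesis genes were lower at day 16 and not at day 12: 2 of 24 were higher and 0 lower at day 12 (a median of 0.06), 0 higher and 11 lower at day 16 (-0.82), and 15 lower and 0 higher at day 16 than at day 12, with a median of -1.13. The mevalonate kinase gene Mvk was at 520 and 587 at day 12 and 145 and 124 at day 16 in NSC medium, against 689 and 531 at day 8. Over both days 5 of the 24 were lower (3 without the second day 8 library), with Tm7sf2 falling the most, by 1.89. The naive pluripotency genes also parted by day. At day 12, 6 of 32 were higher and 0 lower (7.43% and 8.72% of all genes), and at day 16, 1 was higher and 9 lower (8.4% and 8.87%). Set against day 12, 16 were lower and 0 higher at day 16 (5.02% and 5.27% of all genes, and 8 lower without the first day 16 library).

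**Figure D3:**
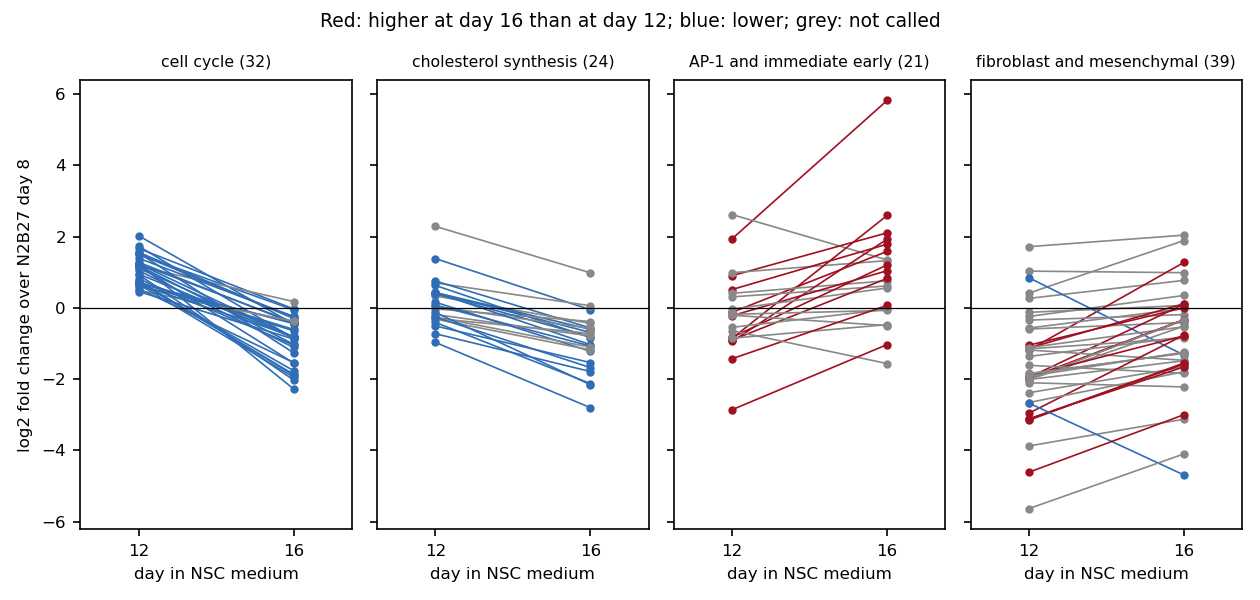
Log2 fold change from N2B27 day 8 (vertical) at day 12 and day 16 in NSC medium (horizontal), with 1 line per gene, for 4 lists. Red lines are called higher and blue lines lower at day 16 than at day 12, and both points of a line share the day 8 libraries. Of the 32 cell cycle genes 30 are blue, and of the 21 AP-1 and immediate early genes 11 are red.

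Of the delivered factors, Sox17 and Klf4 were lower after the change of medium and Myc was not called. Sox17 was at 11250 in both libraries of day 12 and 3064 and 4971 at day 16 in NSC medium, against 20427 and 19623 at day 8, a log2 fold change of -1.59 ± 0.35 (adjusted p = 0.00206). Klf4 was at 4025, 4205, 1389 and 2465, against 7354 and 5178 at day 8 (-1.16 ± 0.25, adjusted p = 0.00156); without the first day 16 library of NSC medium the change was -0.95, and without the first day 8 library -0.91, both short of the threshold. Myc was at 2080 to 3594 in NSC medium and 2141 and 2516 at day 8 (0.32). In LIF/2i, with the same Dox, Sox17 was at 12186 to 39810, so that it was lower in NSC medium than in LIF/2i by 1.51 ± 0.29. Each gene has 1 row in the table, so introduced and endogenous transcripts cannot be told apart. All comparisons of NSC medium with day 8 and with LIF/2i therefore carry a lower Sox17 level in NSC medium, whose part in the other changes was not tested.

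Epidermal genes moved in both directions. Of 34 keratinocyte genes 12 rose and 6 fell, with a median of 0.37, and the summed level was 29364 to 42674 in NSC medium and 19995 to 21971 at day 8. Sprr1a, a component of the cornified envelope, was at 1195, 1028, 1684 and 1667 in NSC medium, against 116 and 149 at day 8 (3.35 ± 0.42, adjusted p = 1.98e-05). Loricrin (Lor), another envelope protein gene, was at 81, 106, 95 and 138, against 10 and 12 at day 8 (3.02 ± 0.43). The wound keratin Krt16 was at 2179, 2713, 1425 and 1425, against 439 and 268 at day 8 (2.43 ± 0.30), and Krt17, Krt6a and Krt14 rose by 2.57, 1.66 and 1.60. The genes that fell beside Krt5 included Krt15 (-2.51) and Col17a1 (-2.37), a hemidesmosome collagen, both at 68 or less in all 6 libraries. Krt14 and Krt5, whose products pair in basal cells, thus went in opposite directions. When only genes with a mean of at least 100 over the 26 libraries were tested, the counts were 7 higher and 0 lower.

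Epithelial genes mostly rose where they were called, with 10 of 40 higher and 1 lower and a median of 0.45. Cldn7, a tight junction claudin, was at 237, 187, 363 and 355 in NSC medium, against 47 and 81 at day 8 (2.12 ± 0.25), and Krt20 rose by 2.19. Lcn2, which encodes lipocalin-2, was at 331 and 275 at day 12 and 5324 and 5177 at day 16, against 228 and 227 at day 8, so its high level was that of day 16. P-cadherin (Cdh3) was the called member that was lower, at 356, 287, 162 and 153, against 852 and 1179 at day 8 (-2.15 ± 0.14). Already in N2B27, 22 of the 40 were higher at day 8 than at day 4 and 0 lower (3% and 1.71% of all genes). In NSC medium 10 of the 40 were lower and 4 higher than in LIF/2i (8.07% and 7.45% of all genes).

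Many mesenchymal genes fell. Of 39 fibroblast and mesenchymal genes 19 were lower in NSC medium than at day 8 and 1 was higher, with a median of -1.17, and their summed level was 191434 to 387791 in NSC medium, 230059 to 422280 in LIF/2i and 830953 to 844284 at day 8. Fbln5, for the elastic fibre protein fibulin-5, was at 1328, 1569, 376 and 335 in NSC medium, against 8829 and 9605 at day 8 (-3.68 ± 0.10, adjusted p = 1.8e-12). Lox, the collagen crosslinking enzyme, fell by 4.87, and Thbs1, Bgn and Col1a1 fell by 3.81, 2.35 and 2.39. In the day 8 libraries Thbs1, Bgn and Col1a1 sat at the highest value of the table, 87546, and Lox did so in 1 of 2, so their changes are limited by that ceiling. Col1a1, the chain of type I collagen, was at 10625 and 9605 at day 12 and 24916 and 30887 at day 16. Of the 39 genes 24 were lower and 1 higher than day 8 at day 12, 14 were lower and 3 higher at day 16, and 12 were higher and 2 lower at day 16 than at day 12. At matched days 7 of the 39 were higher in NSC medium than in LIF/2i and 3 lower. In LIF/2i 24 of the 39 were lower and 0 higher than at day 8 (9.61% and 8.58% of all genes), a comparison that shares the day 8 libraries with that of NSC medium. Twist2, a mesenchymal transcription factor, was the member that rose (1.88 ± 0.31). The matricellular gene Nov, at 717, 767, 454 and 382 in NSC medium against 28991 and 24916 at day 8 (-5.59 ± 0.12), fell most among genes with at least 10 in every library.

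Genes of the TGF-beta and BMP pathways fell more than they rose, with 8 of 22 lower and 1 higher. In LIF/2i 11 of the 22 were lower and 1 higher than in the same day 8 libraries (9.61% and 8.58% of all genes). At matched days 5 of the 22 were higher in NSC medium than in LIF/2i and 1 lower. The ligand genes went in different directions: Tgfb1 was at 863, 804, 1622 and 1447 in NSC medium, against 373 and 187 at day 8 (2.09 ± 0.51, adjusted p = 0.00401, or 0.0819 without the second day 8 library), whereas Tgfb2, Tgfb3 and Bmp4 fell by 1.52, 2.17 and 1.90. Of 18 canonical Wnt target genes 6 fell and 0 rose, with a median of -0.72 (1 higher at an unadjusted p under 0.05, and 3 fell when only genes with a mean of at least 100 were tested). Axin2, the feedback inhibitor that is the usual readout of the pathway, was at 3, 13, 4 and 4 in NSC medium, against 134 and 154 at day 8 (-4.34 ± 0.52, adjusted p = 1.58e-05), and Nkd1, another inhibitor, fell by 3.55. Lgr5, a receptor for R-spondins, was at 113, 126, 60 and 0, against 1113 and 1255 at day 8. In LIF/2i, which contains the GSK3 inhibitor CHIR99021, Axin2 was at 86 to 449, and 12 of the 18 genes were lower in NSC medium than in LIF/2i and 1 higher.

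**Figure D4:**
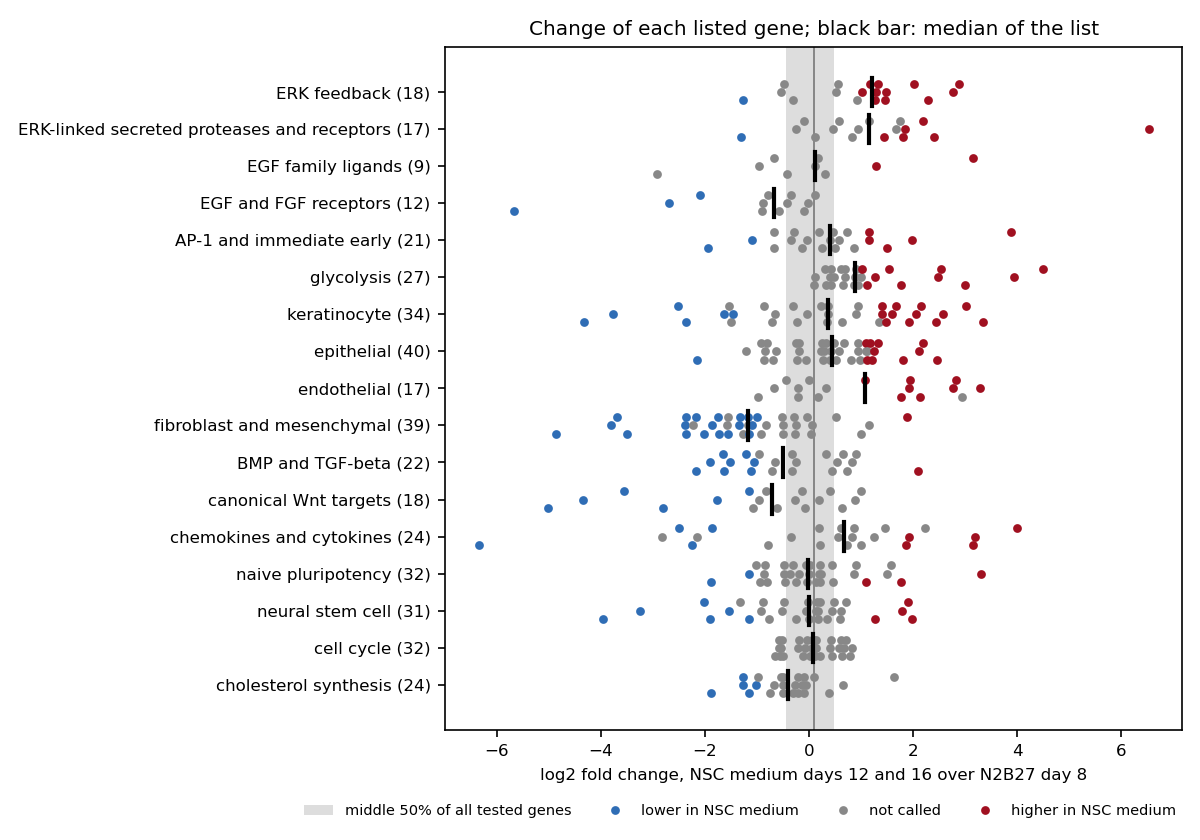
Log2 fold change of NSC medium at days 12 and 16 over N2B27 day 8 (horizontal) for each tested gene of 17 lists (vertical, number of genes in parentheses), with the median of each list as a black bar and the range between the quartiles of all genes, -0.44 to 0.47, shaded. The ERK feedback and protease lists have medians of 1.22 and 1.16, and the fibroblast list has -1.17.

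Some glycolysis and hypoxia-linked genes rose in each medium. In NSC medium 10 of 27 were higher than at day 8 and 0 lower (23 and 0 at an unadjusted p under 0.05), with a median of 0.89. In LIF/2i 10 were higher and 0 lower than at the same day 8. Slc16a3, the lactate exporter, was at 994, 1263, 1525 and 1680 in NSC medium and 719 to 1215 in LIF/2i, against 37 and 88 at day 8 (4.50 ± 0.29 for NSC medium, adjusted p = 3.09e-08). Egln3, the oxygen-sensing prolyl hydroxylase, was at 564 and 756 at day 12 and 2417 and 2766 at day 16, against 83 in both day 8 libraries (3.94 ± 0.23). The phosphofructokinase genes Pfkp and Pfkl rose by 1.76 and 1.55 and triosephosphate isomerase, Tpi1, by 1.12, while lactate dehydrogenase, Ldha, with 9343 to 16249 in NSC medium and 8371 and 9069 at day 8, was not called (0.43). Egln3, Ankrd37 and Aldoc were the 3 of these 10 that were also higher in NSC medium than in LIF/2i.

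Neural stem cell genes moved in both directions. Over both days 4 of 31 were higher and 6 lower than at day 8, against 6.91% and 8.32% of all genes. At day 12, 4 were higher and 8 lower, and at day 16, 1 was higher and 4 lower. Sox2 was at 172, 179, 89 and 99 in NSC medium, against 73 and 122 at day 8, and was not called (0.44). Nes, for the neural intermediate filament nestin, was at 3166, 2958, 1701 and 1921, against 2112 and 2064, and was not called either (0.17). Higher were Msi1 (1.91 ± 0.40), an RNA-binding protein of neural progenitors, with 62 to 123 in NSC medium and 24 in both day 8 libraries, Fabp5 (1.27), Olig1 (1.98) and Olig2 (1.79). Both Olig genes were at 33 or less in all 6 libraries and lost the call with a pseudocount of 16 (changes of 0.84 and 0.58). Olig1 also lost it without the second day 8 library (adjusted p = 0.241), and Olig2 without either day 8 library (0.116 and 0.123) or the second library of day 12 (0.0697) or day 16 (0.0989). Lower were the transcription factor genes Sox21 (-3.95), Pou3f4 (-3.25), Sox1 (-2.01), Gli3 (-1.91) and Nfix, and the glial glutamate transporter gene Slc1a3, and Sox1 lost the call without the first day 8 library (adjusted p = 0.214) and when only the groups compared were fitted (0.0588). Nr2e1 was listed at 0 in all 6 libraries. Of the 32 naive pluripotency genes 3 were higher and 2 lower than at day 8 over both days, against 6.91% and 8.32% of all genes, with a median of -0.02. Nanog was at 856, 651, 296 and 345, against 268 and 195 at day 8 (1.09 ± 0.22, or 0.86 without the second day 8 library, 0.99 without the first day 12 library and 0.98 after rescaling, all 3 short of the threshold), and Dppa5a rose by 3.31. Lin28a, an RNA-binding protein gene, was at 76, 88, 12 and 19, against 154 and 123 at day 8 (-1.88 ± 0.40), and the other member that fell was Klf4. At matched days 28 of the 32 were lower in NSC medium than in LIF/2i and 0 higher. In LIF/2i 29 of the 32 were higher and 0 lower than at day 8 (8.58% and 9.61% of all genes). Already in N2B27, 21 of these 32 genes were higher at day 8 than at day 4 and 0 lower (3% and 1.71% of all genes).

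Genes of families known from the rodent placenta were among the largest increases. This list of 47 prolactin-like, cathepsin, Psg, Ceacam and Tpbp genes was drawn up after these values were seen, and many of its members are near-identical copies, so reads may be split between them and single values are uncertain. In NSC medium 27 were higher than at day 8 and 1 lower, and 27 were higher and 1 lower than in LIF/2i. Their summed level was 14797 to 30504 in NSC medium, 2665 to 5078 in LIF/2i and 3472 to 4206 at day 8, so that every NSC medium library lay above the libraries of both other groups. Tpbpa, a gene of spongiotrophoblast, was at 4859, 2957, 713 and 806 in NSC medium, against 167 and 292 at day 8 (2.93 ± 0.21, adjusted p = 9.24e-08). Prl7b1 was at 3566, 2857, 1184 and 1148, and Prl2c1 at 503, 403, 393 and 351, and both were listed at 0 in both day 8 libraries and all 4 LIF/2i libraries. Prl2c3 was at 972, 883, 1009 and 992, against 3 and 2 at day 8. Prl3a1 ran the other way, listed at 0 in all 4 NSC medium libraries against 548 and 754 at day 8 (adjusted p = 0.0125, or 0.0553 and 0.0784 with the first or the second day 8 library left out). Of 13 trophoblast genes 4 rose (Prl3d1, Tpbpa, Prl2c2 and Krt7) and 3 fell (the transcription factor genes Gcm1, Gata2 and Ascl2), while the factors Elf5, Eomes, Hand1, Tfap2c and Gata3 were not called. Already in N2B27, 7 of the 47 placental family genes were higher at day 8 than at day 4 and 0 lower (3% and 1.71% of all genes). For the 13 trophoblast genes the counts at day 8 against day 4 were 8 higher and 0 lower. The summed level of these 13 genes was 3496 to 8313 in NSC medium and 1689 to 3629 at day 8, 0 of them were at 0 in all 6 libraries, and the part of such cells in the change was not tested.

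**Figure D5:**
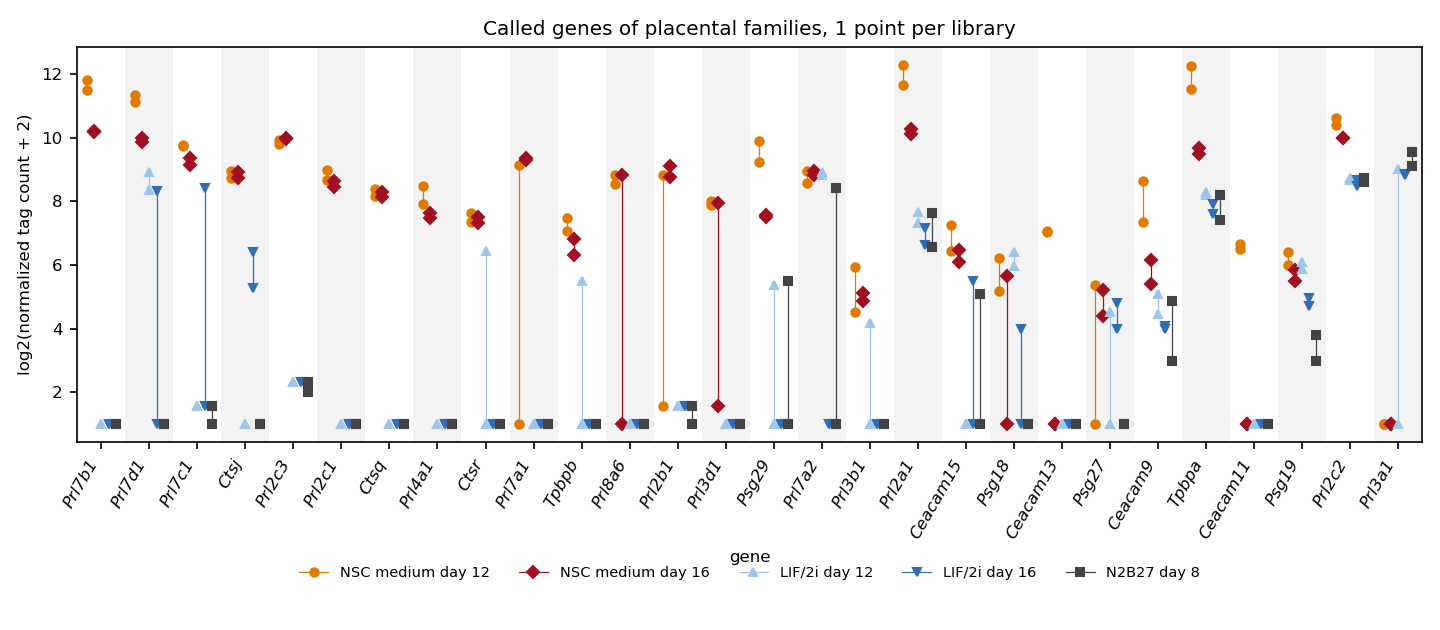
Levels of the 28 called genes of the placental families as log2 of the normalized tag count + 2 (vertical), with 1 point per library and a value of 1 standing for a gene listed at 0. Most NSC medium points lie above the LIF/2i and N2B27 day 8 points, several genes have 1 library at 0 beside a replicate over 5, and Prl3a1 is at 0 in NSC medium.

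Promoters of the placental families are shown for 3 genes because 9 of the 24 called members with an entry (37.5%) held the AP-1 letters TGANTCA in the 250 bases before their start on either strand, against 6.75% of all entries. The motif search in these genes was added after their values were seen, and copies of a gene share sequence, so the 9 are not independent. Of the 9, 8 were called higher and 1, Prl3a1, lower, and the 3 shown are among the 8. Members that were not called were not searched. The stretch of Prl7d1 closely resembles that of Prl2c3 but lacks the letters, and Prl7d1 was also called higher. None of the 24 held CCGGAAGT or TGACGTCA. Capitals mark the AP-1 letters, which no other motif overlaps. The stretches lie at chr13:12800080-12800329 on the minus strand for Prl2c3, chr13:60941937-60942186 on the minus strand for Tpbpa and chr13:27093939-27094188 on the plus strand for Prl3d1, in RefSeq on GRCm38.p6.
Prl2c3: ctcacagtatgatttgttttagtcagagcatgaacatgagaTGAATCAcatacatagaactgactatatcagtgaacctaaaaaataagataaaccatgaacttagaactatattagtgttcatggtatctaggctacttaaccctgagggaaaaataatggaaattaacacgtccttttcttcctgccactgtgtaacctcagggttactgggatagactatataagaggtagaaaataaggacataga
Tpbpa: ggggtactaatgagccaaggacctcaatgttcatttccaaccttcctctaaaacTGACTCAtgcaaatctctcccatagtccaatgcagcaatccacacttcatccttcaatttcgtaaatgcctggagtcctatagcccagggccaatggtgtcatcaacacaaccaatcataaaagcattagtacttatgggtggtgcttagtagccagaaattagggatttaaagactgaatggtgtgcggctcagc
Prl3d1: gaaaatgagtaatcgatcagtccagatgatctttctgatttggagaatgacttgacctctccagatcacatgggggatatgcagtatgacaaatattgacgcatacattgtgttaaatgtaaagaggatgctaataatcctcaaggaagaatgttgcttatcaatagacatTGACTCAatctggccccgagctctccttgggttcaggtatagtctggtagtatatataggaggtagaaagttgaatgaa
The letters begin 209 bases before the start of Prl2c3, 196 before that of Tpbpa and 79 before that of Prl3d1. A match is a description and not a binding site.

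The single largest changes of the table lay mostly in genes that one side lists at 0. Of the 12 largest increases whose mean reached 100 in one group, 10 were at 0 in both day 8 libraries, and of the 12 largest decreases 9 were at 0 in all 4 NSC medium libraries. Values in this table can jump between replicates: 181, 150 and 137 genes were at 0 in one replicate and at 100 or more in the other at day 12, day 16 and day 8. The increases included 6 placental genes, the estrogen sulfotransferase Sult1e1, at 1035, 1008, 456 and 637 in NSC medium and 0 in both day 8 libraries, and the meiotic gene Hormad1, at 400 to 504 in NSC medium, 528 to 792 in LIF/2i and 0 at day 8. The decreases began with C1qtnf3, at 83, 60, 0 and 0 against 5177 and 4073 at day 8, fibromodulin (Fmod), a matrix proteoglycan, at 3, 0, 8 and 8 against 1913 and 2354, Npy6r, a neuropeptide Y receptor gene, at 0 in all 4 against 782 and 690, and Wisp2, at 0, 0, 3 and 3 against 1241 and 1084. Of genes with at least 10 in every library, the increases after Mmp9 included the protease genes Klk8 (3.95) and Asprv1 (4.23), both known from the epidermis, and the decreases after Nov included the matrix genes Ltbp2 (-5.03) and Mfap4 (-4.93) and the Wnt antagonist Sfrp2 (-4.97). Nos3, the endothelial nitric oxide synthase gene, was at 193, 228, 362 and 413 in NSC medium and 2 in both day 8 libraries (6.16 ± 0.45). Of its 4132 exon bases, 294 are shared with Atg9b on the opposite strand, which rose by 4.11. A further gene of that strand, Gm15587, shares 1040 and has no values here. Since the use of strand in the counting is not given, reads there cannot be told apart. The same holds for 32 of the 108 genes given with a fold change, and the shared stretch covers 1163 of 1864 exon bases in Fosl1, 1477 of 3174 in Twist2 and 727 of 1949 in Phlda1.

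Spry2 was followed further because it marks the response. In NSC medium after Dox it was at 7922 and 8623 at day 20 and 4074 and 3834 at day 24, above every library on Dox, whereas in LIF/2i on Dox it was at 485 to 587. The difference between NSC medium and LIF/2i at days 12 and 16 was 1.81 ± 0.06 (adjusted p = 5.96e-12). Likeness to Spry2 was taken over the means of 10 groups: N2B27 on Dox, and NSC medium and LIF/2i on and after Dox. The genes most like it by Pearson r were Tspan11 and Fam149b (0.97 each), Plekha5, Plod1 and H2-Q4 (0.96 each) and Errfi1, Smg6 and Dnm1 (0.95 each). Errfi1 among them is a member of the ERK feedback list. These correlations describe groups that share days, media and normalization.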

How the data were processed

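Total RNA was enriched for mRNA with oligo(dT) beads and sequenced on an Illumina instrument, per the labels' protocols; the labels do not say whether the libraries keep strand. Bowtie2 2.0, RSEM and mm10 are named in the submitters' processing notes. The authors deposited a table of normalized tag counts, used here as a score because the values are whole numbers that were already scaled: every library has the same highest value and nearly the same sum. Such scaling forces the libraries to one distribution, so an overall shift in RNA amount would not be seen, and no counting error can be given. The scaling method is not given in the sources used here. For 12 symbols the table holds more than 1 entry. The files hold 3 columns of values that match no labelled sample, and these were not used. The tests took in 20468 of 20558 genes, those listed at 10 or above in 2 or more libraries. A group-means model on log2(value + 2) was fitted with limma 3.58.1 in R 4.3.3 to all 26 labelled libraries, which share one estimate of the spread with a mean-variance trend. The tests were two-sided with Benjamini-Hochberg adjustment, and contrasts that average both days weight them equally. The script was tested on simulated data. The members, the 36 gene lists with 701 genes and the tests were chosen with earlier results of these data known. Named genes were Spry2, Otx2 and Krt5, the delivered factors, the 12 largest called changes in each direction among genes whose libraries do not overlap and whose mean reaches 100 on one side, every ERK feedback gene, and from each list at most 8 called genes, by size of change, and 3 abundant ones that were not called; the ranking over genes with at least 10 in every library and the placental list were added after the values were seen, and some of the named genes are given only in counts. Overlap with exons on the other strand was read from GENCODE vM21. Alternatives were pseudocounts of 1 and 16, no filter, rescaled libraries, only the groups compared, no trend, a replicate block, and each library left out. The filter on a mean of at least 100 was added after seeing the data.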

Additional observations from a re-analysis of the deposited data

Results flagged for a closer look

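The change since day 8 differed between day 12 and day 16 in NSC medium, tested as day 16 against day 12 (limma, adjusted over all genes tested), for 34 of the genes given with a fold change. Among the ERK feedback genes and receptors, the log2 fold change of day 16 over day 12 was 1.81 for Dusp4, 1.67 for Ier3, 1.10 for Phlda1, 2.00 for Spry1, 1.99 for Egfr and 1.11 for Fgfrl1. For early response, protease and cytokine genes it was 3.89 for Fosb, 1.27 for Ier5, 1.20 for Maff, 1.83 for Ctgf, 1.87 for Mmp9, 1.31 for Mmp14, 3.43 for Socs3, 1.79 for Bcl3 and 2.24 for Tslp. Matrix genes were also higher at day 16, with 1.61 for Bgn, 1.46 for Col1a1, 1.61 for Thbs1, 1.92 for Ltbp2 and 1.08 for Mfap4, as were Egln3 with 1.98, Cd68 with 3.13 and Plvap with 1.45. Lower at day 16 than at day 12 were the factors Sox17 with -1.53 and Klf4 with -1.15, the pluripotency genes Nanog with -1.22 and Dppa5a with -2.01, the RNA-binding protein gene Lin28a with -2.29, and Krt5 with -2.27. Also lower were Cdh3 with -1.01, Fbln5 with -2.02, Sfrp2 with -1.81, Tm7sf2 with -1.83 and Tpbpa with -2.32.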

How the results depend on the processing

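With each library left out in turn, the count of called genes ran from 2408 to 3327 for NSC medium against day 8, 2567 to 3696 for day 12, 2808 to 3547 for day 16, 1845 to 1923 for day 16 against day 12, 2930 to 3340 for NSC medium against LIF/2i and 540 to 1192 for day 8 against day 4. When only genes with a mean of at least 100 were tested, it was 1970 for NSC medium against day 8, 2291 for day 16, 1800 against LIF/2i and 568 for day 8 against day 4; fewer genes enter that test. Fitted on the groups compared alone, day 8 against day 4 gave 342, and the cause was not tested. With a replicate block the counts were 3119, 3323, 3542, 2131, 3170 and 998, in the order above, no count moved by over 1.5 times and 0 of the 108 genes given with a fold change gained or lost the call; the replicate numbers are only numbers, since deviations of equal numbers correlated at -0.03, -0.01 and 0.04. Rescaling the libraries by median ratios took the median of all genes for NSC medium against day 8 to 0, and the share of calls that were higher from 45.4% to 37.4% for NSC medium against day 8 and from 63.8% to 78.0% for day 8 against day 4. Across the other settings the named genes kept their direction, and those that crossed the threshold are given beside their values. Depth is unknown, a ceiling limits the most abundant genes, and values near 0 can jump between replicates.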

Other observations

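Genes of the LIF and STAT3 pathway rose mainly at day 16. Of 16 genes 5 were higher and 2 lower than at day 8 over both days (6.91% and 8.32% of all genes). Set against day 12, 8 were higher and 2 lower at day 16 (5.27% and 5.02% of all genes). Socs3, the feedback inhibitor of the pathway, was at 187 and 335 at day 12 and 2766 and 2656 at day 16 in NSC medium, against 219 and 273 at day 8. Bcl3, a co-regulator of NF-kappaB, was at 328, 329, 1204 and 1080, against 26 and 28 at day 8 (4.41 ± 0.19, adjusted p = 4.22e-10). Of 24 chemokine and cytokine genes 5 were higher and 4 lower (3 higher when only genes with a mean of at least 100 were tested), and 7 were higher and 0 lower at day 16 than at day 12 (3 without the first day 16 library and 4 without the first day 12 library). Tslp, an epithelial cytokine, was at 2343 and 2669 at day 12 and 14544 and 9607 at day 16, against 541 and 689 at day 8 (3.15 ± 0.19, adjusted p = 1.46e-08). Cxcl12 was at 534, 521, 582 and 922, against 3565 and 3440 (-2.49 ± 0.69, adjusted p = 0.00891, or 0.0511 and 0.0555 with the first or the second day 8 library left out).

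Of 17 endothelial genes 8 were higher and 0 lower by limma (9 and 1 at an unadjusted p under 0.05), with a median log2 fold change of 1.07, and their summed level was 5053 to 5607 in NSC medium, 2285 to 2802 in LIF/2i and 3624 to 3792 at day 8. With genes under a mean of 100 left out, 3 were higher. Cdh5, for VE-cadherin, was at 756, 651, 421 and 640, against 147 and 164 at day 8 (1.94 ± 0.52, adjusted p = 0.00781, or 0.053 without the first day 8 library). Egfl7 rose by 2.82 and Plvap by 2.77; Sox7 (3.29) and Tie1 (1.92) lost the call without the second day 8 library (adjusted p = 0.101 and 0.119). Of the defining genes, Pecam1 and Kdr were not called, Tek was at 599 to 835 in NSC medium and 1316 and 1533 at day 8, and Tal1 was listed at 0 in all 6 libraries. Whether endothelial cells were present was not tested. Of 18 macrophage and blood genes 3 were higher and 1 lower, against 6.91% and 8.32% of all genes, and 5 were listed at 0 in all 6 libraries. Cd68, a lysosomal protein gene, was at 84 and 95 at day 12 and 807 and 786 at day 16, against 36 and 29 at day 8 (2.98 ± 0.23), while Adgre1, C1qb, C1qc, Fcgr1 and Tyrobp were at 0 in all 6.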
